A study of Mus musculus with 8 samples.

Results

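Regulatory T (Treg) cells of the thymus that lacked the microRNA cluster miR-181a/b-1 (KO, 2 arrays) were compared with thymic Treg cells that kept 1 functional copy of it (HET, 2 arrays). The genes described are those with a probe set of exactly 1 gene symbol, with the probe set of the highest mean over all 8 arrays kept for each gene, outside chromosomes X and Y. This gave 21258 of 22180 genes, of which 21204 lay on chromosomes 1 to 19 and 54 had no such place in the reference. RNA came from Foxp3(GFP)+CD4+CD25+ cells that were sorted by flow cytometry at a stated purity of 98% and was hybridised to Affymetrix mouse arrays. All mice were C57Bl/6J and carried a GFP reporter in the Foxp3 locus, HET and KO alike. The deletion is a germline allele, so every cell of a KO mouse carried it, the thymic stroma included. Each array held 1 pool of mice. Female mice numbered 3 in pool HET 1, 4 in pool HET 2 and 2 in each KO pool, and every pool had 1 male besides. The labels give no age, and the study's methods describe young adult mice. Spleen arrays of the same 4 pools make up the rest of the series and are used here beside the thymus values. No marker of recent formation entered the sort, so Treg cells newly made in the thymus and Treg cells that had come back to it were measured together.

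Treg cells arise in the thymus from CD4 single-positive cells whose T cell receptor (TCR) binds self antigen strongly, and they switch on Foxp3, the transcription factor that defines them. MicroRNAs of the miR-181 family are abundant in double-positive thymocytes, the stage before, and are known to set how sensitively the TCR signals by lowering phosphatases that dampen it. The comparison asks whether Treg cells that formed without the cluster differ in their transcripts while still in the organ where they arise.

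A microRNA finds its targets mainly through its seed, bases 2 to 8 of the mature strand. The 5p strands of the family are shown because those encoded by the deleted cluster share their seed, and in part their whole sequence, with strands encoded elsewhere. Sequences are those of RefSeq for GRCm38.p6, written 5′ to 3′ with the seed in capitals.
miR-181a-5p: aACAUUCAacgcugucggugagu
miR-181b-5p: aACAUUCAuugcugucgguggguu
miR-181c-5p: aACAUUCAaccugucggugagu
miR-181d-5p: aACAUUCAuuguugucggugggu
The deleted copies of miR-181a-5p and miR-181b-5p lie on the plus strand at chr1:137966468-137966490 and chr1:137966650-137966673, in the precursors Mir181a-1 and Mir181b-1. The table held 6 loci with 4 distinct 5p strands and 1 seed. Of these loci 4 lie outside the deleted cluster, and Mir181a-2 and Mir181b-2 on chromosome 2 encode the same miR-181a-5p and miR-181b-5p strands as the cluster does.

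The deleted transcripts could not be read on these arrays. Levels are log2 intensities, and a level was read as background when it was below 4.63. This bound is the 95th percentile of the levels of 1105 genes for olfactory receptors, which have no known use in T cells, over the 4 thymus arrays. Mir181a-1 was at 2.48 and 2.16 on the HET arrays and at 2.42 and 2.58 on the KO arrays. Mir181b-1 was at 3.44 and 2.59 in HET and at 2.26 and 2.29 in KO. All of these values lay under the bound in both groups, so they gave no check of the deletion. The precursors outside the cluster, named after their values were seen, were near or over the bound. Mir181a-2 was at 5.03 and 5.68 in HET and at 4.73 and 5.38 in KO, and its groups overlapped. Mir181b-2 was at 4.55 and 4.50 in HET, under the bound, and at 4.801 and 4.886 in KO, over it. KO was at least 1.16-fold higher without overlap (limma, unadjusted p = 0.0245, adjusted p = 0.841). Mir181c was at 6.28 and 6.68 in HET and at 6.30 and 6.46 in KO, and Mir181d at 6.98 and 7.14 in HET and at 7.01 and 7.14 in KO. The groups of Mir181c and Mir181d overlapped.

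Before the comparison, 2 features of the arrays have to be stated. Xist, the X-linked RNA that coats the inactive X chromosome of female cells, was at 3.90 and 4.40 on the HET arrays, under the bound, and at 9.40 and 8.80 on the KO arrays, although the labels list female mice in every pool. The sex of the cells and the genotype cannot be told apart in these 4 arrays, and genes of chromosomes X and Y are otherwise left out. Arrays numbered 1 also stood apart from arrays numbered 2 in both genotypes. Over the genes in the top 25% by level, the median deviation from a gene's mean over the 4 arrays was 0.06 on HET 1 and 0.07 on KO 1, and -0.05 on HET 2 and -0.08 on KO 2. The labelled cell type was in place: Foxp3 was at 11.24 and 11.24 in HET and at 11.10 and 11.13 in KO. Il2ra, which encodes CD25, was at 11.12 and 11.09 in HET and at 11.03 and 10.99 in KO, and Cd4, Cd3e, Ctla4, Ikzf2 and Tnfrsf18 lay far over the bound on all 4 arrays.

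No gene passed the threshold between KO and HET thymic Treg cells. By limma with Benjamini-Hochberg adjustment over all 22180 genes, at a threshold of 0.05, 0 of 21258 genes were called (0.0%), and the smallest adjusted p was 0.122. Without adjustment, 1169 genes had a p under 0.05 (5.5%), 625 of them lower and 544 higher in KO, where 1063 were due with no difference at all. The typical difference was small. The median absolute difference between group means was 0.10 on the log2 scale. It was 0.16 between the 2 HET arrays and 0.17 between the 2 KO arrays. Means of 2 arrays vary less than single arrays, so these values do not rank genotype against replicate spread. They include 9048 genes that were under the bound in both groups. For 99.3% of genes the 95% confidence interval (CI) lay within 1 log2 unit, or 2-fold, of 0. The median CI reached 0.31 to either side. Because 2 arrays per group allow few calls, genes are also described by whether the groups overlapped. Both KO arrays lay below both HET arrays for 3047 genes (14.3%) and above them for 3177 genes (14.9%), and these shares are the background for the counts that follow. With a difference of at least 1 log2 unit added, 4 genes lay below (0.0188%), which were Lilrb4a, Lox, Tigit and the predicted gene Gm4841. In the other direction 3 genes lay above (0.0141%), which were Cd8a, Nrp2 and Mir186, and Mir186 was under the bound in both groups. Gm4841 and Mir186 were named after their values were seen. In the plot of all genes these few stood outside a band that was symmetric about 0.

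**Figure D1:**
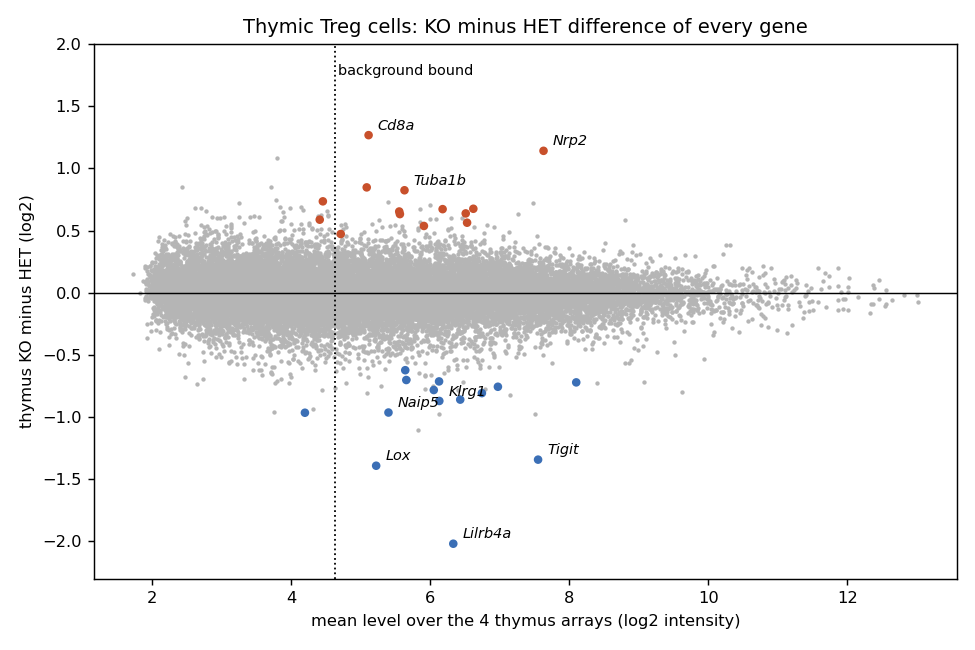
Difference between KO and HET thymic Treg cells (log2, y axis) against the mean level over the 4 thymus arrays (log2 intensity, x axis) for 21258 genes outside X and Y (grey). Blue and red points are the 14 lower and 14 higher genes with the smallest p above the background bound (dotted line at 4.63). Lilrb4a, Lox and Tigit lie lowest and Cd8a and Nrp2 highest, and none of them was called.

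The genes with the smallest p on the lower side included 3 inhibitory receptors, surface proteins that restrain the cell that carries them. Lilrb4a, an immunoglobulin-like receptor best known from myeloid and mast cells, was at 7.84 and 6.84 on the HET arrays and at 5.12 and 5.52 on the KO arrays. All KO values lay below all HET values, by a gap wider than that within either group. The difference was -2.02 (CI -2.67 to -1.37, adjusted p = 0.122), a level 4.05-fold higher in HET. Lilrb4a has a near-identical neighbour, Lilrb4b, and the probe set may read both. Tigit, which competes with an activating receptor for ligands on antigen-presenting cells, was at 8.63 and 7.82 in HET and at 6.93 and 6.83 in KO. The KO arrays were close together and both lay below the HET arrays. The difference was -1.34 (CI -1.85 to -0.83, adjusted p = 0.167). Klrg1, a cadherin receptor that marks terminally differentiated lymphocytes, was at 6.65 and 6.48 in HET and at 5.81 and 5.58 in KO, without overlap and with narrow spread in both groups. Its difference was -0.87 (CI -1.18 to -0.56, adjusted p = 0.167). With 1 thymus array left out, Lilrb4a ran from -2.52 to -1.52 and Tigit from -1.75 to -0.935. The larger difference of each came without the array HET 2.

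Most of the list of inhibitory receptors, which holds these 3 genes, was lower in KO. Of 19 measured members 18 had a negative difference, 0 were called, and in 9 the groups did not overlap with KO below, against 0 with KO above. That is 47.4% of the list against the background of 14.3%. The members of this and the other lists were chosen with earlier results of these data known. Their shares are therefore descriptive and not a test. Without Lilrb4a, Tigit and Klrg1, 15 of 16 were lower and 6 lay below (37.5%), with a median of -0.13. Over all 19 the median difference was -0.18 beside 0.00 over all genes, and -0.08 with levels under the bound set to it. It lay between -0.27 and -0.09 with each thymus array left out. Cd200r1, which binds CD200 and dampens myeloid and lymphoid activation, was at 6.61 and 6.67 in HET and at 6.17 and 6.03 in KO. Pdcd1, which encodes PD-1, was at 9.48 and 8.84 in HET and at 8.79 and 8.63 in KO. Cd200r1 and Pdcd1 both lay lower in KO without overlap, by -0.54 and -0.45, and Pdcd1 came to -0.13 without the array HET 1. Ctla4, the inhibitory receptor through which Treg cells strip costimulatory ligands, was at 9.20 and 9.13 in HET and at 9.05 and 8.89 in KO. Its groups did not overlap either, but its difference was only -0.19 (CI -0.47 to 0.09). In bulk RNA, fewer cells with a transcript and less of it per cell cannot be told apart.

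**Figure D2:**
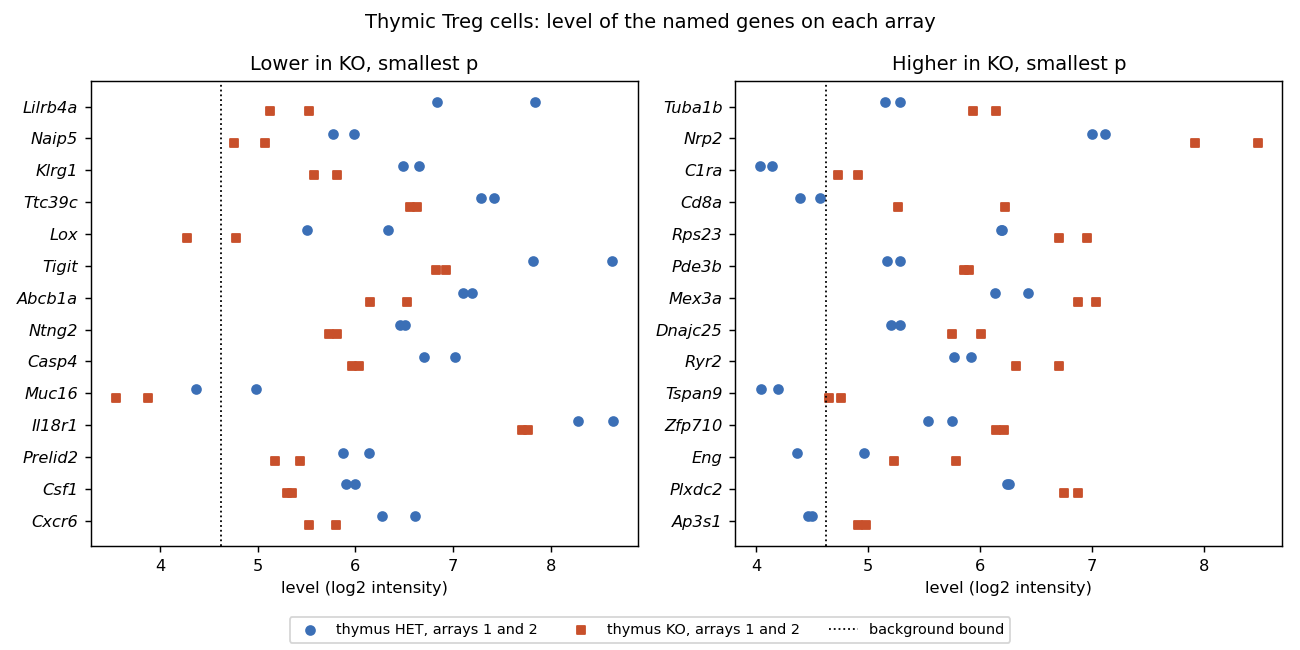
Level (log2 intensity, x axis) of the 14 lower (left) and 14 higher (right) named genes on each thymus array; blue circles are HET arrays, red squares KO arrays, and the dotted line is the background bound at 4.63. The groups overlap for none of these genes. Lilrb4a has HET arrays far apart on the left, and Cd8a has KO arrays far apart on the right.

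Several lower genes belong to innate sensing. Naip5, a cytosolic sensor of bacterial flagellin, was at 5.99 and 5.77 in HET and at 4.76 and 5.08 in KO. Casp4, the mouse caspase-11 that binds cytosolic lipopolysaccharide, was at 7.02 and 6.70 in HET and at 5.96 and 6.04 in KO. Both lay lower in KO without overlap, by -0.96 (adjusted p = 0.167) and -0.86 (adjusted p = 0.326). Casp1, the effector protease of inflammasomes, was at 7.59 and 6.97 in HET and at 6.67 and 6.70 in KO, and Naip6, the closest relative of Naip5, at 5.98 and 6.07 in HET and at 5.67 and 4.98 in KO. Naip5 and Naip6 are similar in sequence and their probe sets may share signal. Of 14 measured genes of the NAIP and inflammasome list only 7 were above the bound in a thymus group, 0 were called, and in 5 KO lay below without overlap (35.7%) against 2 above. The median over all 14 was -0.02, with 7 of them at background.

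Other lower genes had unrelated roles. Lox, the lysyl oxidase that crosslinks collagen and elastin, was at 6.33 and 5.51 in HET and at 4.78 and 4.27 in KO. The KO mean was under the bound, so HET was at least 2.32-fold higher, and the measured difference was -1.39 (adjusted p = 0.167). With 1 thymus array left out it ran from -1.80, without the array HET 2, to -0.98. Abcb1a, a pump that exports drugs, was at 7.19 and 7.10 in HET and at 6.53 and 6.15 in KO. Csf1, the growth factor of macrophages, was at 5.91 and 6.00 in HET and at 5.35 and 5.30 in KO. Both were lower in KO without overlap, by -0.81 and -0.62, with narrow groups. Ttc39c (-0.76), Ntng2, a membrane-anchored netrin (-0.71), and Prelid2 (-0.70) were similar. Muc16, a membrane mucin, differed by a measured -0.96, but its KO arrays lay under the bound and HET was at least 1.04-fold higher. A further 2 predicted genes, receptor segments or small RNAs on the lower side had a p as small as these 14 genes.

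Receptors for cytokines and chemokines were lower in KO in most members. Il18r1, the binding chain of the interleukin-18 receptor, was at 8.64 and 8.28 in HET and at 7.77 and 7.71 in KO. Its partner chain Il18rap was at 7.0 and 6.38 in HET and at 6.11 and 6.05 in KO. Both chains lay lower in KO without overlap, by -0.72 (CI -1.03 to -0.41, adjusted p = 0.326) and -0.61. Over the interleukin receptors, 17 of 22 measured members were lower, 0 were called, 8 lay below without overlap (36.4%) and 2 above, and the median of -0.13 came to -0.02 without the array HET 1. Cxcr6, the receptor for CXCL16 that marks tissue-resident and effector cells, was at 6.61 and 6.27 in HET and at 5.80 and 5.52 in KO. Ccrl2, an atypical receptor that presents chemerin, was at 5.38 and 5.19 in HET and at 4.73 and 4.62 in KO. Cxcr6 differed by -0.78 (CI -1.13 to -0.44, adjusted p = 0.326) and Ccrl2 by -0.61. Cxcr5, the receptor that leads to B cell follicles, was at 7.46 and 6.83 in HET and at 6.71 and 6.60 in KO, and Ccr4, which recruits effector Treg cells to skin and inflamed sites, at 7.19 and 6.70 in HET and at 6.69 and 6.28 in KO. In Ccr4 the groups nearly touched. Of 21 measured chemokine receptors 17 were lower, 0 were called, 9 lay below without overlap (42.9%) and 1 above, and the median of -0.10 ran from -0.21 without the array KO 1 to -0.03 without the array KO 2.

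Genes of effector Treg cells, the activated cells with access to tissues, were lower in KO in most members. Of 26 measured effector and memory genes 20 were lower, 0 were called, and 12 lay below without overlap (46.2%) against 1 above, with a median of -0.20 that stayed between -0.28 and -0.12 with each thymus array left out. Penk, which encodes the opioid precursor proenkephalin, was at 10.23 and 9.81 in HET and at 9.42 and 9.04 in KO. Itgb1, the integrin chain that binds extracellular matrix, was at 9.27 and 9.05 in HET and at 8.71 and 8.52 in KO. S100a11, a calcium-binding protein, was at 8.62 and 8.78 in HET and at 8.26 and 8.33 in KO. All 3 lay lower in KO without overlap, by -0.80, -0.54 and -0.41. Of 22 measured transcription factors of effector Treg cells 17 were lower, 0 were called, and 10 lay below (45.5%) against 0 above, with a median of -0.15 that came to -0.02 without the array HET 1. Maf, which drives interleukin-10, was at 7.18 and 7.17 in HET and at 6.68 and 6.64 in KO, with narrow groups, and differed by -0.52 (CI -0.77 to -0.26, adjusted p = 0.428). Prdm1, which encodes Blimp-1, was at 6.60 and 6.74 in HET and at 6.18 and 6.00 in KO. It differed by -0.58. Vdr, the vitamin D receptor, and Rbpj, the DNA-binding partner of Notch, lay lower by -0.40 and -0.36 without overlap.

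Genes that define a Treg cell were lower in most members too. Of 24 measured identity genes 17 were lower, 0 were called, and 10 lay below without overlap (41.7%) against 2 above, with a median of -0.14 (-0.23 to -0.07 with each thymus array left out). Il2ra (-0.10, CI -0.35 to 0.16) and Ikzf2, which encodes Helios (-0.08, CI -0.38 to 0.21), were near 0. The members farthest from 0 were others. Socs2, a feedback inhibitor of cytokine signals, was at 7.36 and 6.99 in HET and at 6.66 and 6.15 in KO. Nrp1, a surface marker of Treg cells of thymic origin, was at 9.94 and 9.61 in HET and at 9.36 and 9.18 in KO. Nt5e, which encodes CD73 and makes adenosine, was at 9.80 and 9.60 in HET and at 9.41 and 9.20 in KO. Their differences were -0.78, -0.50 and -0.39, with no overlap in any of them. Among 15 costimulatory receptors 14 were lower, 0 were called, and 6 lay below (40.0%) against 0 above. Their median of -0.12 came to 0.00 without the array KO 2. Tnfrsf8, which encodes CD30, differed by -0.64, and Icos by -0.46. In the list of IL-2 and STAT5 genes 13 of 16 were lower, 0 were called, and 7 lay below (43.8%) against 1 above, with Pim1, a survival kinase, at -0.37. The 8 Gimap GTPases, survival factors of resting lymphocytes, had 7 members lower, 0 called and 4 below (50%) against 0 above. Gimap8 was at 8.86 and 8.78 in HET and at 8.44 and 8.48 in KO, and Gimap4 at 10.26 and 10.22 in HET and at 9.96 and 9.90 in KO. The Gimap median of -0.24 shrank to -0.03 without the array HET 1. Several of these lists share genes, such as Ctla4, Socs2 and Il2ra, and their counts are not independent of each other.

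**Figure D3:**
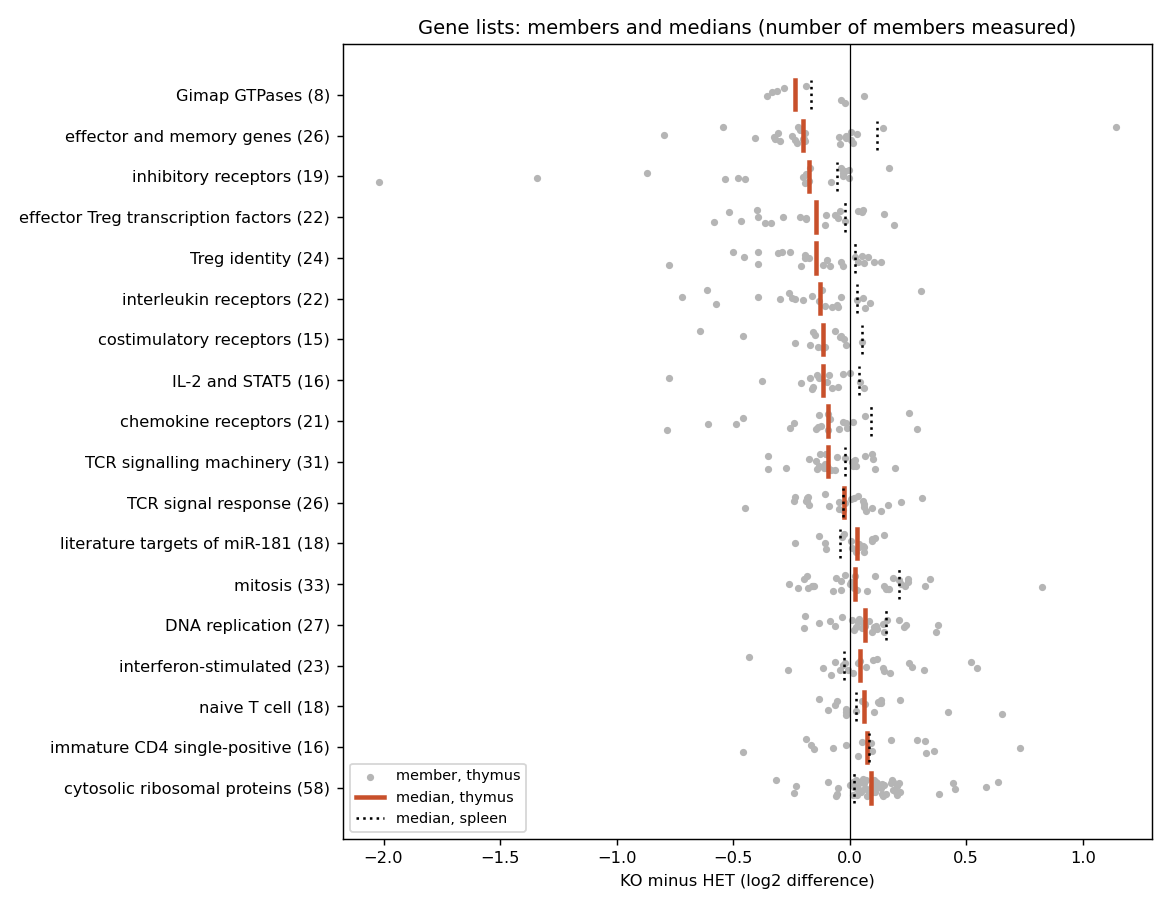
Difference between KO and HET (log2, x axis) of the members of 18 gene lists in thymic Treg cells (grey points), with the median in thymus (red bar) and in spleen (dotted bar); the number of measured members is in brackets. The Gimap list has the lowest median in thymus, -0.24, the lists of effector genes and receptors lie between -0.20 and -0.10, and ribosomal protein genes have the highest median shown, 0.09.

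On the higher side Nrp2 stood out. Nrp2, a co-receptor for semaphorins and vascular growth factors, was at 7.12 and 7.0 on the HET arrays and at 8.48 and 7.92 on the KO arrays. The HET arrays were nearly equal and both lay below the KO arrays. The difference was 1.14 (CI 0.72 to 1.56, adjusted p = 0.167), a level 2.21-fold higher in KO. Nrp2 was the 1 member of the effector and memory list that lay above, and its relative Nrp1 lay on the other side. Tuba1b, an alpha-tubulin, was at 5.28 and 5.15 in HET and at 5.94 and 6.14 in KO, a difference of 0.82 (CI 0.53 to 1.11, adjusted p = 0.167). Pde3b, a phosphodiesterase of cyclic nucleotides that Foxp3 is known to repress, was at 5.28 and 5.17 in HET and at 5.90 and 5.86 in KO. It differed by 0.65 (CI 0.36 to 0.95, adjusted p = 0.326), with tight groups. Ryr2, a calcium release channel, was at 5.77 and 5.92 in HET and at 6.71 and 6.32 in KO, and Mex3a, an RNA-binding protein, at 6.14 and 6.43 in HET and at 7.04 and 6.88 in KO. Eng, a co-receptor for TGF-beta ligands, was at 4.36 and 4.96 in HET and at 5.79 and 5.23 in KO, with wide groups that did not overlap. Dnajc25 (0.63), Plxdc2 (0.56) and Zfp710 (0.54) were higher without overlap too. For C1ra, a protease of the complement system, Tspan9, a tetraspanin, and Ap3s1, an adaptor subunit of endosomes, HET lay under the bound and KO was at least 1.14-fold, 1.05-fold and 1.25-fold higher. A further 3 predicted genes, receptor segments or small RNAs on the higher side had a p as small as these 14 genes.

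Cd8a was the other gene on this side with a difference over 1 log2 unit. Cd8a, the co-receptor chain that CD4 single-positive cells have turned off, was at 4.39 and 4.57 in HET and at 6.22 and 5.27 in KO. HET lay under the bound, and KO was at least 2.17-fold higher (adjusted p = 0.326). The KO arrays were far apart. With 1 thymus array left out the difference ran from 0.79 to 1.74, the larger value without the array KO 2. The sort took CD4+ cells and did not name CD8. Other markers of double-positive thymocytes did not move as one. Dntt, which adds nucleotides at TCR junctions, was at 5.20 and 4.84 in HET and at 4.62 and 4.59 in KO, just under the bound. Rag2, of the recombinase, lay under the bound on all 4 arrays. Ptcra, the pre-TCR chain, was at 5.18 and 5.43 in HET and at 5.03 and 5.41 in KO, and Cd8b1, the partner chain of Cd8a, at 7.10 and 7.22 in HET and at 7.61 and 7.11 in KO. Of 7 measured markers 2 lay above without overlap (28.6%), Cd8a and Cd1d1, and 2 lay below (28.6%). Cd1d1 differed by 0.46, and the median of the list was -0.08. The summed level of the list, Cd8a included, was 8.31 and 8.44 on the HET arrays and 8.79 and 8.50 on the KO arrays. It was higher on both KO arrays, and a sum without Cd8a was not taken. The part of these markers in the differences above was not tested.

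In the lists of naive and of immature T cells more genes were higher than lower. Of 18 measured genes of naive T cells 11 were higher, 0 were called, and 8 lay above without overlap (44.4%, beside a background of 14.9%) against 1 below, with a median of 0.06 that came to 0.03 without the array KO 1. Dapl1, a marker of resting T cells, was at 6.06 and 6.42 in HET and at 6.92 and 6.40 in KO, with groups that overlapped. Actn1, an actin crosslinker, was at 10.01 and 9.90 in HET and at 10.24 and 10.11 in KO. Actn1 lay above without overlap. Among the list for immature CD4 single-positive thymocytes, 10 of 16 measured genes were higher, 0 were called, and 5 lay above (31.2%) against 3 below, with a median of 0.07. Cd24a, a surface protein lost as thymocytes mature, was at 4.95 and 5.11 in HET and at 6.08 and 5.44 in KO and differed by 0.73. Myb, a transcription factor of progenitors, was at 8.60 and 8.87 in HET and at 9.03 and 9.10 in KO, and Ccr9, a homing receptor of thymocytes, at 5.58 and 5.55 in HET and at 5.88 and 5.83 in KO. Both lay above without overlap, by 0.32 and 0.29. Among the 3 genes of the list that lay below, Ccr4 differed by -0.46 and Cd5 by -0.19. The median of this list came to -0.03 without the array KO 1.

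Ribosomal protein genes were higher in KO by a small amount in most members. The list took 58 measured genes by their Rpl and Rps symbols, of which Rps19bp1 and Rps23rg1 are not ribosomal proteins. Of the 58, 51 had a positive difference, 0 were called, and 17 lay above without overlap (29.3%) against 1 below. Without those 2 genes 51 of 56 were positive, with 17 above (30.4%) and 0 below. The median over the 58 was 0.09, and it stayed between 0.04 and 0.13 with each thymus array left out. Rps23 was at 6.19 and 6.19 in HET and at 6.95 and 6.71 in KO, a difference of 0.64 (CI 0.35 to 0.92, adjusted p = 0.326). Rps18 (0.58), Rpl17 (0.45) and Rpl37 (0.44) followed. Genes of this family have many processed pseudogenes, whose transcripts a probe set may also read. Interferon-stimulated genes were split. Of 23 measured members 14 were higher and 8 lay above without overlap (34.8%) against 2 below, with 0 called and a median of 0.04 that came to 0.01 without the array KO 1. Oas2 and Mx2, which act against viral RNA and viral particles, lay above by 0.52 and 0.55, while Bst2, which tethers virions, was at 7.72 and 7.72 in HET and at 7.41 and 7.16 in KO.

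Readouts of TCR signalling and known targets of miR-181 stayed near 0. Nr4a1, induced within hours of a TCR signal, was at 9.88 and 9.68 in HET and at 9.96 and 9.63 in KO. Egr2, another early response gene, was at 7.80 and 7.41 in HET and at 7.73 and 7.43 in KO. In both genes the groups overlapped, with differences of 0.02 (CI -0.30 to 0.33) and -0.02 (CI -0.38 to 0.34). Cd5, whose level follows the strength of TCR signals in the thymus, was at 10.96 and 10.81 in HET and at 10.74 and 10.65 in KO. The KO arrays lay below, by -0.19 (CI -0.46 to 0.08). Of 26 measured genes of the TCR response 14 were lower and 12 higher, 0 were called, and 3 lay below (11.5%) and 2 above (7.69%), shares under the background in both directions. Pdcd1 (-0.45) and Myc (0.31) lay farthest out. In the signalling machinery 20 of 31 members were lower, 0 were called, and 8 lay below (25.8%) against 2 above, with Malt1, a protease that activates NF-kappa-B, at -0.35. The median of -0.09 came to 0.00 without the array KO 2.

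A microRNA lowers its targets, and 18 genes described in the literature as targets of miR-181 were measured. Of these, 12 were higher and 6 lower in KO, 0 were called, and 3 lay above (16.7%) and 1 below (5.56%), with a median of 0.03. Their differences ran from -0.23 to 0.15. Ptpn22, a phosphatase that restrains the kinases next to the TCR, was at 9.995 and 9.78 in HET and at 9.76 and 9.54 in KO, lower in KO by a small margin. Dusp6, a phosphatase of ERK, was at 7.79 and 7.54 in HET and at 7.84 and 7.79 in KO. Ptpn11, which encodes SHP-2, differed by 0.06 (CI -0.27 to 0.39), Dusp5 by -0.10 (CI -0.40 to 0.19) and Bcl2, a survival factor, by 0.06 (CI -0.22 to 0.34). For each of these 5 genes the CI covered 0 and excluded a 2-fold difference in either direction. The same exclusion held for 99.3% of all genes, and the CIs did not exclude smaller differences. Only transcripts were measured, and an effect of the microRNA on translation would not be seen.

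The summed levels of cell cycle genes differed more by array number than by genotype, with KO slightly higher within each number. The summed level of 33 mitosis genes was 12.48 on HET 1 and 12.55 on KO 1, and 12.09 on HET 2 and 12.10 on KO 2. The same held for 27 genes of DNA replication, at 12.14 and 12.25 on the arrays numbered 1 and at 11.78 and 11.81 on those numbered 2. Between genotypes 20 of 33 mitosis genes and 21 of 27 replication genes were higher in KO, 0 were called, and medians were 0.02 and 0.07. Without overlap, 3 mitosis genes lay above (9.09%) and 3 below (9.09%), and 4 replication genes lay above (14.8%) and 0 below, shares at or under the background. Tuba1b was the one mitosis gene with a difference over 0.5, and Cdt1, which licenses origins of replication, was at 7.13 and 6.76 in HET and at 7.42 and 7.21 in KO. With the arrays HET 1 or KO 2 left out the mitosis median was 0.22 or 0.31. With HET 2 or KO 1 left out it was -0.08 or -0.17. In spleen of the same pools 32 of 33 mitosis genes and 26 of 27 replication genes were higher in KO.

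**Figure D4:**
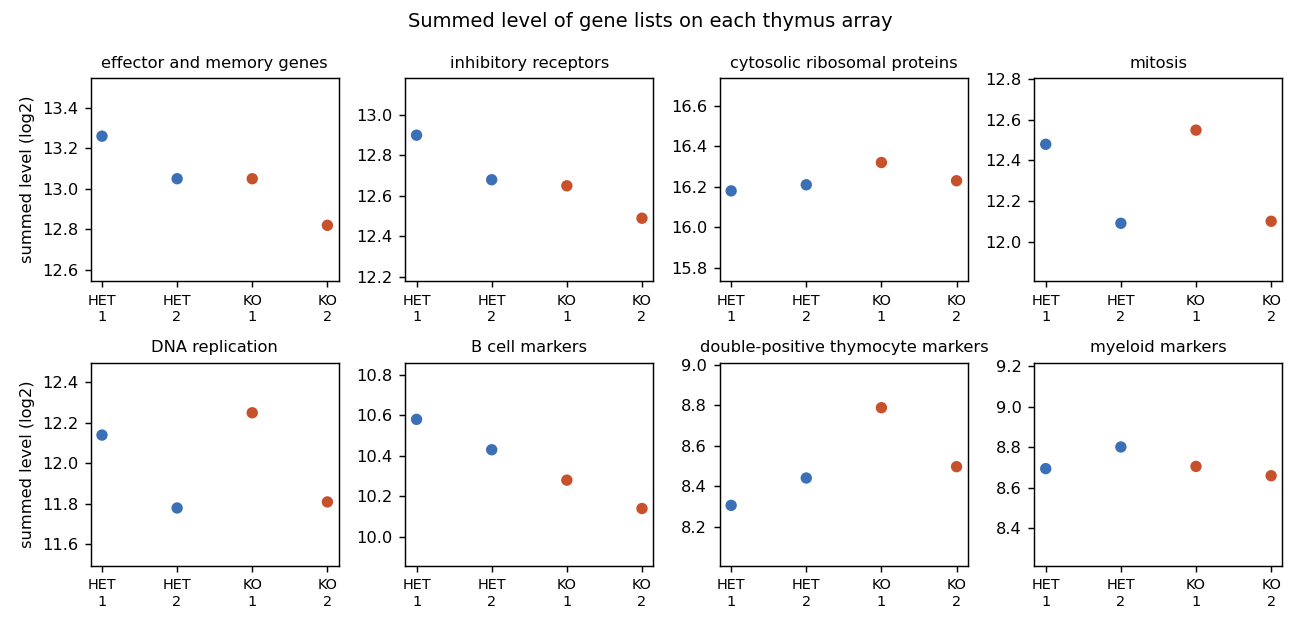
Log2 of the summed linear levels of 8 gene lists on each thymus array (HET in blue, KO in red); every panel spans 1 log2 unit. Mitosis and DNA replication genes are high on the arrays numbered 1 in both genotypes. The sum of B cell markers, made up mostly by Ighm, is lower on both KO arrays. The sum of double-positive thymocyte markers, Cd8a included, is higher on both.

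Among markers of other cell types, most B cell and myeloid markers lay under the bound. Most MHC class II genes (7 of 10) and most markers of thymic stroma lay above it. Of 11 measured B cell markers 3 were above the bound. Without overlap, KO lay below HET for 1 of the 11 (9.09%) and above HET for 3 (27.3%). Their summed level was 10.58 and 10.43 in HET and 10.28 and 10.14 in KO, lower on both KO arrays. Ighm, the heavy chain of IgM, made up most of it, at 10.34 and 10.14 in HET and at 9.97 and 9.83 in KO, while the B cell markers Ms4a1 and Cd79a were on average under the bound in both groups. Myeloid markers, with 7 of 20 above the bound, summed to 8.70 and 8.80 in HET and to 8.71 and 8.66 in KO, and the sums overlapped, while 7 of the 20 lay below without overlap (35.0%) and 1 above. Innate-like and cytotoxic markers, with 10 of 19 above the bound, summed to 10.19 and 10.31 in HET and to 10.46 and 10.05 in KO. Among them Xcl1, a chemokine of activated lymphocytes, was at 7.09 and 7.15 in HET and at 8.26 and 7.42 in KO, and Ccl5 at 8.45 and 8.63 in HET and at 8.40 and 7.86 in KO. MHC class II genes (10.82 and 10.69 in HET, 10.80 and 10.51 in KO), erythroid markers (2 of 4 above the bound, 6.29 and 6.38 in HET, 6.34 and 6.36 in KO) and markers of thymic stroma (8 of 13 above the bound, 9.86 and 9.90 in HET, 9.83 and 9.83 in KO) were at like levels on all 4 arrays. The part of B cell transcripts in the genes that lay lower in KO was not tested.

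The same pools gave spleen arrays, which showed whether a thymic difference was also seen in the periphery. Of the 14 lower genes 11 were also lower in KO spleen, 6 of them without overlap, beside a background in spleen of 17.6% of all genes. Lox and Muc16 among these 11 lay under the bound on all spleen arrays and overlapped there. Of the 14 higher genes 12 were also higher, 9 of them without overlap, beside a background of 18.4%. Cd8a, Tspan9 and Ap3s1 among these 9 lay under the bound on all spleen arrays, so 6 were measured there. Over all genes above the bound in thymus, 435 of 1754 that lay below without overlap did so in spleen too (24.8%), and 321 of 1653 that lay above did (19.4%). The backgrounds of 17.6% and 18.4% also hold genes under the bound. Thymus and spleen arrays share their mice, so these are not independent replicates. The 28 genes were chosen for their thymus difference, which by itself makes a smaller spleen difference likely, so the sizes are given side by side only. Lilrb4a was at 8.22 and 8.62 on the spleen HET arrays and at 6.91 and 7.55 on the spleen KO arrays, a difference of -1.19 beside -2.02 in thymus. Abcb1a differed by -0.62 in spleen beside -0.81, and Ryr2 by 0.71 beside 0.67, and of these 28 genes no other had a spleen difference over 0.5 in size. Tigit, at 8.44 and 7.96 in spleen HET and at 7.97 and 7.79 in spleen KO, overlapped there and differed by -0.32. Klrg1, at 8.01 and 7.78 in spleen HET and at 8.0 and 7.90 in spleen KO, differed by 0.06.

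**Figure D5:**
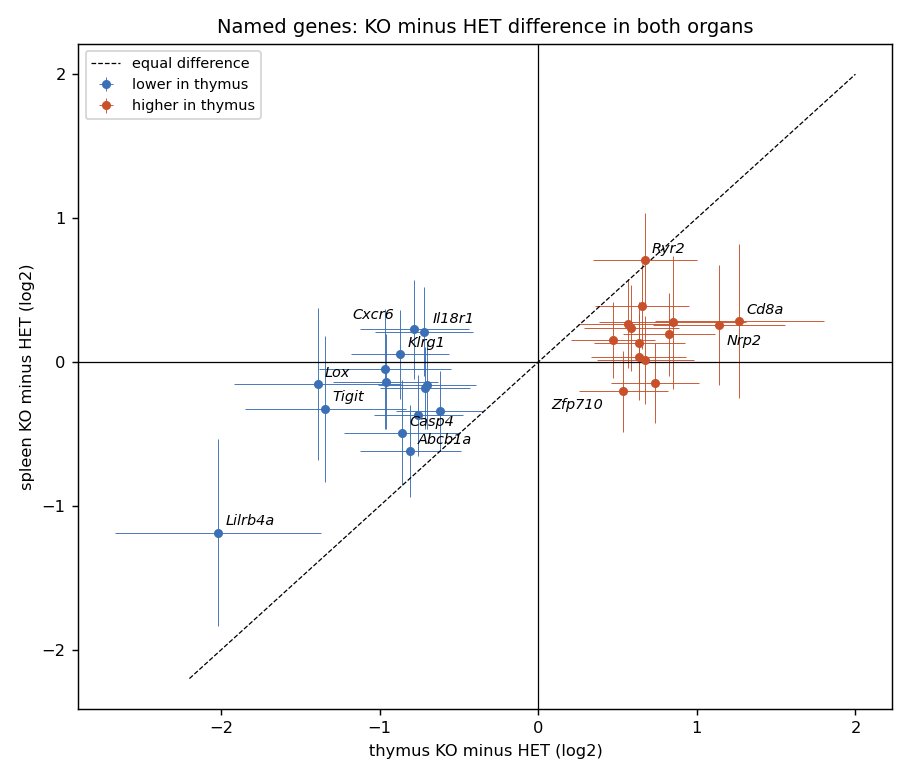
Difference between KO and HET in spleen (log2, y axis) against that in thymus (log2, x axis) for the 14 lower (blue) and 14 higher (red) named genes, with 95% CIs from limma; on the dashed line both are equal. Among these genes, chosen for their thymus difference, Ryr2, Abcb1a and Lilrb4a have the largest spleen differences.

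Whether a thymic difference differed from the splenic one was tested as an interaction, and 0 of 21258 genes were called (0.0%; limma, smallest adjusted p = 0.9999). Unadjusted, 767 genes had a p under 0.05, fewer than the 1063 due with no difference. The members with the smallest interaction p included Klrg1 (-0.93), Il18r1 (-0.93), Socs2 (-1.19) and Drc1 (-0.92) on the lower side, and C1ra (0.88), Fos (0.83), Keg1 (0.80) and Zfp710 (0.74) on the higher side. C1ra lay under the bound on all spleen arrays, so its value has no reading in spleen behind it. Socs2 lay 0.78 lower in KO thymus, and in spleen it was at 7.69 and 7.44 in HET and at 8.0 and 7.95 in KO. Il18r1 was likewise at 7.35 and 7.36 in spleen HET and at 7.64 and 7.49 in spleen KO, so that its KO arrays lay below HET in thymus and above HET in spleen. Fos, an AP-1 subunit of early responses, was at 5.24 and 5.01 in thymus HET and at 5.31 and 5.54 in thymus KO, and at 5.51 and 5.54 in spleen HET and at 4.94 and 5.04 in spleen KO. Over the effector and memory list the spleen median was 0.12 beside -0.20 in thymus, over chemokine receptors 0.09 beside -0.10, and over inhibitory receptors -0.05 beside -0.18. For mitosis genes the order was reversed, with 0.21 in spleen beside 0.02 in thymus. These list differences between the organs were not tested.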

How the data were processed

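Transcripts were measured on 8 Affymetrix arrays, 2 for each of 4 groups. The authors deposited a table of log2 values for 41345 probe sets; per the labels the Bioconductor package oligo was used, and its version and summarisation are not given in the sources used here. Array medians lay between 4.58 and 4.70, and the values were used as deposited. Identifiers and labels were followed where the methods text gives another array design and a legend gives other pool sizes. Of the probe sets, 23521 had 1 gene symbol, 1820 several and 16004 none in the annotation; 23328 matched the reference by Entrez identifier. Arrays have no depth, and their number limits the precision.

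All 8 arrays entered 1 model of 4 group means in limma 3.58.1 (R 4.3.3), with 4 residual degrees of freedom, moderated by eBayes. P-values are two-sided and adjusted by Benjamini-Hochberg over 22180 genes. The fit was tested on simulated data. Named were the 14 genes in each direction with the smallest p above the background bound, up to 4 members of each list, a fixed set of 13 genes, and 4 genes in each direction of the interaction. Members, lists and rules were chosen with earlier results of these data known. Foxp3, Xist, Cd4, Cd3e, Tnfrsf18, Cd8b1, Rag2, Ptcra and the miR-181 precursors outside the cluster were added as label checks after values were seen. Replicates are separate pools of mice. Labels pair thymus and spleen arrays of a pool; their deviations correlated at 0.12 (HET) and 0.02 (KO). Alternatives were filters, quantile normalization, eBayes settings, probe set means, array weights, blocks and left-out arrays.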

Additional observations from a re-analysis of the deposited data

Results flagged for a closer look

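Among 12210 genes above the bound, 1754 lay below HET in KO thymus without overlap and 1653 above. Of the 1754, 243 lay above HET in KO spleen, and of the 1653, 298 lay below. Beside these, 435 lay below in both organs and 321 above in both. Over all 21258 genes, 18.4% lay above in spleen and 17.6% below. That background also holds genes under the bound, so the sets differ. Beside it the share of the 243 was smaller, and the share of the 298 was close. Of the genes given values here 14 lay on opposite sides, and no interaction passed (limma, adjusted p = 0.9999 for each). Lower in KO thymus and higher in KO spleen were Socs2 (thymus difference minus spleen difference -1.19), Cxcr6 (-1.01), Ccr4 (-1.04), Il18r1 (-0.93), Drc1 (-0.92), Maf (-0.64), Icos (-0.51), Ctla4 (-0.33) and Il2ra (-0.20). Higher in KO thymus and lower in KO spleen were C1ra (0.88), Fos (0.83), Keg1 (0.80), Zfp710 (0.74) and Rps18 (0.68). C1ra lay under the bound on all spleen arrays. Outside the genes described, Xist differed by 4.95 between KO and HET thymus, although the labels list female mice in every pool.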

How the results depend on the processing

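The count of called genes was 0 in the thymus with all arrays under every alternative but one. With the array number as a replicate block, which pairs HET and KO arrays that share only a number, 2 genes were called, Lox (adjusted p = 0.0344) and Tigit (adjusted p = 0.0482), both lower; the deviations of same-numbered HET and KO thymus arrays correlated at 0.21. With 1 array left out the count ran from 0 to 3: 3 lower genes without HET 2 (Lilrb4a, Lox, Tigit), 2 higher genes without KO 1 (Gm4983 and Tex38, named after their values were seen) and 1 higher gene without KO 2 (Cd8a). A lone array is then assumed to vary like the other groups. Genes at an unadjusted p under 0.05 ran from 597 with genes below the median level left out to 2126 without KO 1. For the interaction the count was 0 under every alternative, the mouse pool as a replicate block included (smallest adjusted p = 0.104).

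With 1 thymus array left out, by construction more genes did not overlap: 30.2% to 34.2% with KO below, 31.4% to 33.4% with KO above, 7 to 16 genes below by 1 or more, and 5 to 14 above by 1 or more. Without genes below the median level 1 gene lay above by 1 or more. Of the named genes near 0, with 1 thymus array left out Ikzf2 ran from -0.194 to 0.025, Nr4a1 from -0.147 to 0.18, Egr2 from -0.218 to 0.177, Ptpn11 from -0.115 to 0.234, Dusp5 from -0.209 to 0.00179, Cd4 from -0.556 to 0.00617, Tnfrsf18 from -0.232 to 0.00168, Cd8b1 from -0.052 to 0.45, Rag2 from -0.278 to 0.112 and Ptcra from -0.276 to 0.109; under the alternatives run, the other named genes that were traced kept their direction. Of the 93 traced genes, a further 35 kept their sign but moved by over 1.5 times with 1 thymus array left out, such as Pdcd1 (-0.767 to -0.129), Cxcr5 (-0.801 to -0.174) and Rpl17 (0.125 to 0.774). Of 39 lists 17 kept the sign of their median with each thymus array left out.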
